A study of Mus musculus with 6 samples.

Results

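The 49 genes described here encode integrins, the laminins, type IV collagens, nidogens and heparan sulfate proteoglycans of the basement membrane, dystroglycan, and the ligands fibronectin, vitronectin and osteopontin. They were taken by gene symbol, with no use of measured values, and were 49 of the 23420 genes counted in both tissues. They comprised 18 integrin α genes, 7 integrin β genes, 5 laminin α, 3 laminin β and 2 laminin γ genes, 6 type IV collagen genes, 2 nidogens, 2 heparan sulfate proteoglycans (*Hspg2* and *Agrn*), *Dag1*, *Fn1*, *Vtn* and *Spp1*.

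RNA was sequenced from the luminal layer of the mouse uterus, cut out by laser microdissection, and from blastocysts flushed out of the horns, all at 8 pm on day 4 of pregnancy. Control females were Lif-floxed/floxed and received PBS, and eKO females were Lif-floxed/floxed Ltf-Cre/+, in which Cre is driven in the uterine epithelium, and also received PBS. The last group was eKO females injected with recombinant Lif (rLif), 20 µg per head, at 10 am and 6 pm, the second time 2 h before dissection. All 3 blastocyst groups carried the genotype label Lif-floxed/+, so they differed by the female they came from. Each group was 1 library of pooled RNA (several microdissected samples, or pooled blastocysts), which makes 6 libraries and no replicate of any group. The spread between animals is unknown, and no p-value is given.

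Integrins are receptors of an α and a β chain that hold cells to the matrix and pass signals in both directions. Laminin trimers (α, β and γ) and type IV collagen form the networks of the basement membrane, which nidogens and perlecan (*Hspg2*) tie together, and dystroglycan (*Dag1*) is a further laminin receptor. At implantation the trophectoderm of the blastocyst meets the apical surface of the luminal epithelium, and integrins and osteopontin (*Spp1*) are long-studied molecules of that contact.

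Total counts ran from 18996158 to 28460465 per library. *Lif* itself had 0 counts in the luminal control, 28 in the luminal library labelled eKO and, after rLif, 0 again. The library labelled eKO thus had the only luminal *Lif* counts. The paper places *Lif* of the receptive phase in the uterine glands, so luminal counts this low cannot settle the label. In blastocysts *Lif* had 1447, 1736 and 1250 counts in the same order. The luminal libraries are therefore named by their labels. All 8 luminal epithelial markers were detected in the luminal layer, where *Pou5f1*, *Nanog* and *Gata4* were at 0 counts. All 8 trophectoderm markers, 5 inner cell mass markers and 6 primitive endoderm markers were detected in blastocysts, where *Wnt7a* was at 0. In pools of this kind, fewer cells of a type and less RNA per cell cannot be told apart.

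Of the 49 genes, 34 had an entry in the RefSeq promoter table (GRCm38.p6), which spans 250 bases before to 50 after each start. Stretches upstream of the start of 3 genes are printed as description, and no result depends on them. *Spp1* had the highest mean level of all members in both tissues, and *Col4a5* and *Col4a6* lie head to head with starts 1343 bases apart. Capitals mark the letters of a TATA box (TATAAA) or a GC box (GGGCGG), searched on both strands and at any position.
*Spp1*, chr5:104434861-104435110, plus strand: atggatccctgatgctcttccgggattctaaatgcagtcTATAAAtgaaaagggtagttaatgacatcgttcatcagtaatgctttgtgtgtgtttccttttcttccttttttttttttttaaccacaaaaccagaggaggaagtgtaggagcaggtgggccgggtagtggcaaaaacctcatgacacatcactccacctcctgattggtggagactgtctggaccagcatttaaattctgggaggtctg
*Col4a5*, chrX:141475169-141475384, plus strand: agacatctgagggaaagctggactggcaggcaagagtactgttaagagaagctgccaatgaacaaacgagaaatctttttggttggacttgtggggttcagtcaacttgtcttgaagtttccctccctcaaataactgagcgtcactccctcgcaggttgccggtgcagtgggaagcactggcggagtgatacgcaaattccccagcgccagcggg
*Col4a6*, chrX:141474077-141474326, minus strand: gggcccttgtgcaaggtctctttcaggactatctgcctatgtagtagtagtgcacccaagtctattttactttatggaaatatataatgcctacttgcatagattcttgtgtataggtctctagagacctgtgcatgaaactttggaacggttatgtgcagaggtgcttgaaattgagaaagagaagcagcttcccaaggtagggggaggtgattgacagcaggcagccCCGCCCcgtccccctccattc
The *Spp1* stretch held the TATA letters, near the end away from the start, and the *Col4a6* stretch held a GC box on the other strand. The *Col4a5* stretch held neither, but it is 216 bases, cut short of the start to leave out annotated exon bases. Over whole windows, the TATA letters stood in the promoters of *Spp1* and *Vtn*, 2 of the 34, against 13.6% of 32851 promoters in the table. A GC box stood in 19 of the 34, *Col4a5* and *Col4a6* among them, against 35.7%. The palindrome TTCNNNGAA, which Stat factors bind, stood in the promoters of *Itga10*, *Lamb2* and *Vtn*, 3 of the 34, against 8.3%. These matches describe letters only, without regard to their distance from the start. Members were counted by gene, with a match at any listed start, while the percentages are over single promoters. A gene with several starts had more chances of a match, so the shares cannot be read as enrichment.

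Levels between genes are compared in RPKM, counts scaled to exon length and to the total count of the library. In the luminal layer *Spp1* led with a mean of 76.5 RPKM over the 3 libraries, and it was followed by *Itgb1* at 46.8, *Itgb5* at 31.6, *Nid1* at 24.9, *Dag1* at 16.2, *Fn1* at 14.3, *Itga6* at 11.0 and *Lamc1* at 9.58. In blastocysts *Spp1* had a mean of 671 RPKM, and *Dag1* at 183 and *Nid1* at 112 came next. They were followed by *Itgb1* at 55.6, *Lamc1* at 51.1, *Lamb1* at 41.2, *Itga5* at 31.3 and *Itgb5* at 28.8. The shared leaders were thus the ligand *Spp1*, the β chains *Itgb1* and *Itgb5*, the linker *Nid1*, the laminin chain *Lamc1* and the laminin receptor *Dag1*. The remaining order is not read further, since neighbours lay close and each library was single. By their exons in the tables (GRCm38/mm10), *Spp1* spans chr5:104435111-104441053, *Itga7* chr10:128933813-128958284 and *Lama1* chr17:67697265-67822645, and all 49 lay over the protein-coding gene of that name in GENCODE M21. All 49 genes had at least 10 counts summed over the luminal libraries. In blastocysts 38 did, 11 did not, and *Lama2*, *Itga8* and *Itgad* were at 0 in all 3 libraries.

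**Figure D1:**
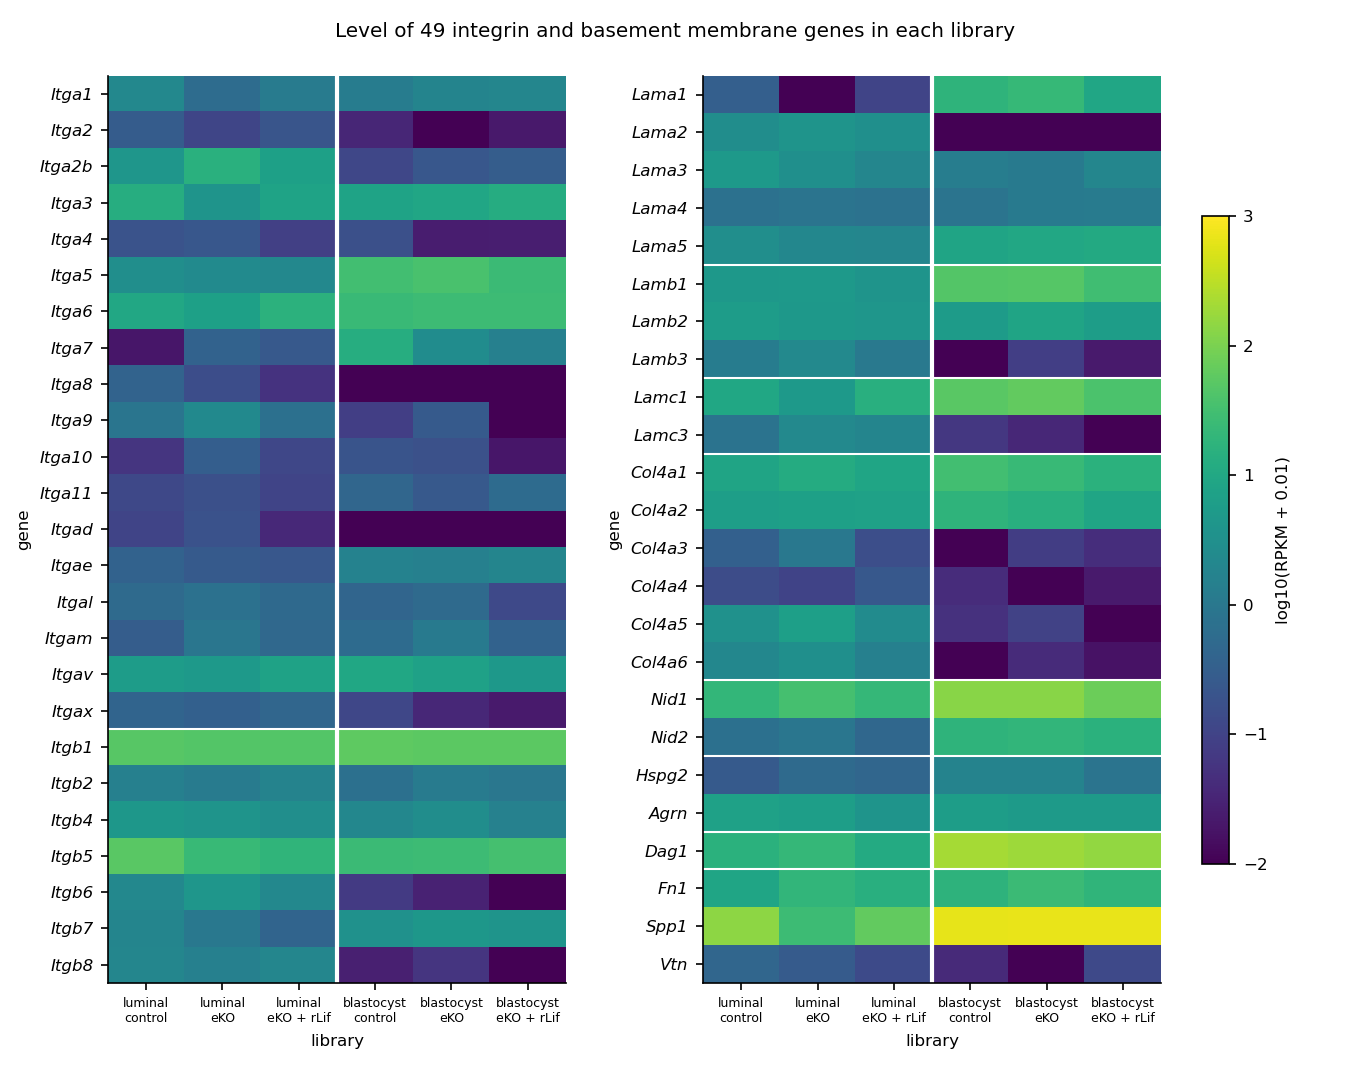
Level of each of the 49 genes (rows, grouped by class) in the 6 libraries (columns), as log10 of RPKM plus 0.01. *Spp1* is brightest in the 3 blastocyst libraries, at 655 to 679 RPKM, and *Lama2*, *Itga8* and *Itgad* are darkest in all 3 blastocyst libraries.

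The first comparison asks which of these genes differed between the luminal libraries labelled eKO and control. The library labelled eKO had less osteopontin, integrin α3, α1 and β5 mRNA and no laminin α1 counts. It had more of the integrin α chains *Itga2b*, *Itga9*, *Itga10*, *Itgam* and *Itga7*, of *Lamc3* and *Col4a3*, and of fibronectin. A gene is counted as beyond 2-fold when the exact 95% interval of the ratio of its counts in 2 libraries, scaled by TMM, lay wholly outside 2-fold. That interval covers counting error only, takes each read as an independent count, and may be too narrow. By this rule 13 of 49 members (26.5%) were beyond 2-fold, 8 higher and 5 lower, against 17.2% of the 15694 genes analysed (8.08% higher and 9.15% lower). The median log2 ratio over the 49 members was 0.13, against 0.00127 over all genes. The members' ratios lay on both sides, 25 above and 24 below 0.

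The 2 other luminal comparisons ask what was different after rLif. Against the control, the library labelled eKO with rLif had 6 members (12.2%) beyond 2-fold, 2 higher and 4 lower, against 9.16% of all genes (4.12% and 5.04%), with a median log2 ratio of -0.07, against 0.00653 over all genes. When libraries were scaled by total counts, the split was 1 higher and 6 lower. Against the library labelled eKO, 8 members (16.3%) were beyond 2-fold, 5 higher and 3 lower, against 15.6% of all genes (7.88% and 7.77%), with a median of -0.17, against -0.00372. That share is near the background. The 3 comparisons share libraries in pairs, so their values are given side by side.

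Among the integrin α chains, *Itga3* (a laminin receptor chain of epithelia) had 1484 counts in the luminal control, 522 in the library labelled eKO and 1077 in the library labelled eKO with rLif. It was lowest in the library labelled eKO, with a log2 ratio of -1.69 to control (95% interval -1.84 to -1.55) and of 1.19 (1.03 to 1.34) for rLif against eKO. *Itga1*, a collagen receptor chain, had 312, 98 and 194 counts in the same order. Its log2 ratio was -1.86 (-2.20 to -1.52) for eKO against control, and its ratio of 1.13 for rLif against eKO had an interval from 0.77 to 1.49 that reached inside 2-fold. *Itga6*, which pairs with *Itgb4* in hemidesmosomes, had 976, 840 and 1887 counts. It stood highest in the library labelled eKO with rLif, with a log2 ratio of 1.31 (1.19 to 1.43) to eKO, while 0.91 (0.79 to 1.02) to control did not clear 2-fold.

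Other α chains were highest in the library labelled eKO. *Itga2b*, best known as the α chain of the platelet fibrinogen receptor, had 343, 1455 and 650 counts. Its log2 ratios were 1.90 (1.73 to 2.07) for eKO against control and -1.02 (-1.16 to -0.89) for rLif against eKO, the latter not beyond 2-fold. *Itga9*, a chain of a receptor for tenascin and osteopontin, had 149, 465 and 137 counts. The library labelled eKO stood apart from both others, by 1.46 (1.19 to 1.73) against control and with a log2 ratio of -1.62 (-1.91 to -1.34) for rLif against eKO. *Itga10*, a collagen receptor chain, had 6, 43 and 15 counts, with 2.66 (1.42 to 4.18) for eKO against control. *Itgam*, a chain of leukocyte integrins, had 32, 122 and 61 counts, with 1.74 (1.17 to 2.35). Both were highest in the library labelled eKO, on few counts.

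*Itga7*, a laminin receptor chain known from muscle, had 1, 41 and 27 luminal counts. With 1 control count, the log2 ratios were 5.17 (2.61 to 10.51) for eKO and 4.71 (2.11 to 10.07) for rLif, and the width of the intervals shows how little fixes the size. Its exons overlap those of *Mettl7b*, which had 0, 0 and 2 counts, so the assignment of its reads is uncertain. *Itga8* had 52, 23 and 7 luminal counts, and rLif against control gave a log2 ratio of -2.94 (-4.32 to -1.79). It was lowest in the library labelled eKO with rLif, and its exons overlap *E030013I19Rik* (6, 0 and 6 counts). Luminal *Itga4*, the α4 chain of leukocytes and mesenchyme, had 43, 61 and 21 counts and did not pass the rule. *Itga5*, the classical fibronectin receptor chain, was within 2-fold at 301, 305 and 257 counts. *Itgal*, a leukocyte chain, had 65, 106 and 74 counts and was also within 2-fold.

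Of the 7 β chains, *Itgb5* and *Itgb7* were beyond 2-fold in a luminal comparison. *Itgb1*, the common partner of most α chains here, had 4990, 5362 and 5310 luminal counts, with log2 ratios of -0.08, 0.05 and 0.13. *Itgb5*, a partner of αv, had 4130, 2167 and 1707 counts and was highest in the control. Its log2 ratios were -1.12 (-1.19 to -1.04) for eKO and -1.32 (-1.40 to -1.24) for rLif, both against control. *Itgb7*, a lymphocyte chain, had 119, 74 and 30 counts, with -2.03 (-2.66 to -1.44) for rLif against control. As shares of the summed RPKM of the 7 β genes, *Itgb1* was 43.6%, 56.2% and 62.1% and *Itgb5* was 46.1%, 29.0% and 25.5%. The 2 chains thus had near-equal shares in the control and unequal shares in both other libraries. Within the 18 α genes, *Itga2b* was 10.2%, 37.4% and 15.1% and *Itga3* was 31.1%, 9.50% and 17.7%.

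Both laminin γ genes described here were beyond 2-fold in at least 1 luminal comparison. *Lamc3* had 113, 381 and 308 luminal counts and was lowest in the control, with log2 ratios to it of 1.57 (1.26 to 1.88) for eKO and 1.40 (1.09 to 1.73) for rLif. *Lamc1*, the γ chain of most laminin trimers, had 1711, 1089 and 3031 counts, lowest in the library labelled eKO and highest in that labelled eKO with rLif. The ratio of rLif to eKO was 1.62 (1.52 to 1.72) in log2 units, while -0.84 (-0.95 to -0.73) for eKO against control lay within 2-fold.

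*Lama1*, the α chain of the embryonic laminin, had 73 luminal counts in the control, 0 in the library labelled eKO and 26 in that labelled eKO with rLif. Set against a floor of 3 counts in the library at 0, it was at least 27.7-fold lower in eKO than in control and at least 9.56-fold higher with rLif than in eKO. The exact interval, which also covers counting error in the library above 0, was bounded by log2 ratios of -4.46 and 2.86. *Lama3*, an α chain of epithelial laminins, had 1265, 892 and 570 counts, with -1.19 (-1.34 to -1.05) for rLif against control. *Lamb1*, a β chain of broad use, was within 2-fold at 642, 805 and 626 counts. Laminin α and γ genes of the luminal layer thus lay on both sides of the control.

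Of the 6 collagen genes, *Col4a3* and *Col4a5*, which assemble with *Col4a4* in specialised basement membranes, passed the 2-fold rule. *Col4a3* had 69, 239 and 35 luminal counts, with 1.61 (1.21 to 2.01) for eKO against control and -2.63 (-3.19 to -2.11) for rLif against eKO. *Col4a5* had 526, 1203 and 472 counts. Both were highest in the library labelled eKO, and the log2 ratio of *Col4a5* was -1.21 (-1.36 to -1.05) for rLif against eKO, while 1.01 (0.86 to 1.16) against control did not clear 2-fold. *Col4a6*, whose upstream stretch is printed beside that of *Col4a5*, had 325, 586 and 279 counts and log2 ratios of 0.66, -0.26 and -0.93, none beyond 2-fold. *Col4a4*, which starts 72 bases from *Col4a3* on the other strand, had 25, 20 and 49 counts and did not pass the rule. The widely used chains *Col4a1* (1315, 2197 and 1597 counts) and *Col4a2* (954, 1249 and 1322), with starts 3 bases apart, were within 2-fold as well.

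Ligands and linkers were among the most abundant members. *Spp1* had 5566, 1264 and 2850 luminal counts, lowest in the library labelled eKO. Its log2 ratio was -2.32 (-2.41 to -2.24) for eKO against control and 1.31 (1.22 to 1.41) for rLif against eKO, while -1.01 (-1.08 to -0.94) for rLif against control straddled the 2-fold limit. *Fn1* had 1720, 4772 and 3386 counts and was lowest in the control, with 1.29 (1.21 to 1.37) for eKO and 0.93 (0.85 to 1.02) for rLif. *Nid1* had 2905, 5747 and 3546 counts and *Dag1* had 2217, 3668 and 1868. Both were highest in the library labelled eKO, with 0.80 and 0.54 against control, and neither was beyond 2-fold in any luminal comparison.

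**Figure D2:**
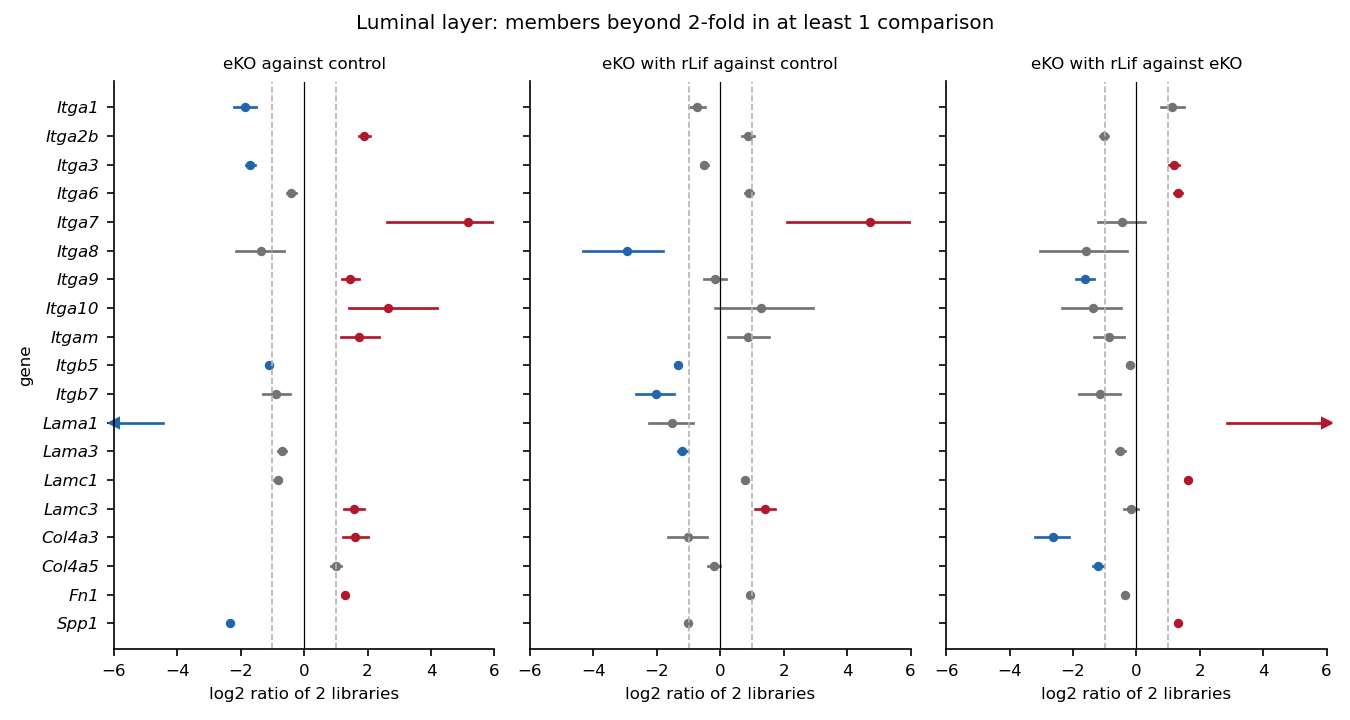
Log2 ratio (x axis) of each member beyond 2-fold in at least 1 luminal comparison (rows), in the 3 comparisons (panels). Points are ratios of 2 libraries, lines are 95% intervals of counting error drawn to a log2 ratio of 6, arrowheads mark 0 counts in 1 library, and red and blue mark members beyond 2-fold, higher and lower. *Spp1* and *Itga3* lie left of the dashed limit in the eKO against control panel and right of the opposite limit in the rLif against eKO panel.

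Markers of other cell types moved among the same luminal libraries. The summed level of 10 stromal markers was 918 CPM (counts scaled to a common library size) in the control, 1369 in the library labelled eKO and 936 in that labelled eKO with rLif, with *Col3a1* of the 10 beyond 2-fold higher in eKO against control. The 6 smooth muscle markers summed to 70.4, 50.5 and 31.4 CPM, and *Cnn1* and *Actg2* were beyond 2-fold lower for eKO and 4 of the 6 for rLif, both against control. The 7 endothelial markers summed to 54.7, 74.3 and 97.1 CPM, with *Cdh5* beyond 2-fold higher for eKO, and *Cdh5* and *Tek* for rLif, against control. The 7 immune markers counted, of 8, summed to 1871, 2025 and 2401 CPM, with none beyond 2-fold. Most of these counts were of *Cd14* (26180, 37869 and 45086) and *Lyz2* (18800, 17587 and 14292), against 225, 402 and 390 for *Ptprc*. For the 8 luminal epithelial markers the sums were 9836, 11857 and 8959 CPM, with *Krt8* and *Krt19* higher in eKO against control. The 3 gland markers counted, of 5, summed to 7.17, 4.32 and 17.9 CPM and were all higher for rLif against eKO. Their part in the ratios of *Fn1*, the collagens, the leukocyte integrins, *Itga1*, *Itga8* and the laminins was not tested.

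In blastocysts, fewer genes were beyond 2-fold than in the luminal layer. For those from eKO females against those from control females, 3 of the 38 members analysed (7.89%) were beyond 2-fold, 1 higher and 2 lower, against 3.15% of 14873 genes (1.29% and 1.86%). The 3 were *Col4a3*, *Itga7* and *Itga4*, and the median log2 ratio of members was 0.12. For rLif-treated eKO against control, 4 members (10.5%) were beyond 2-fold, all lower, against 4.94% of all genes (0.948% higher and 3.99% lower), with a median of -0.19. Between the eKO libraries with and without rLif, 6 (15.8%) were beyond 2-fold, all lower, against 3.75% (0.914% higher and 2.83% lower), with a median of -0.32. The median over all genes was within 0.00790 of 0 in each of the 3 comparisons. Most of these calls rest on low counts.

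*Itga7* had 987 counts in blastocysts from control females, 215 in those from eKO females and 118 in those from rLif-treated eKO females. The control library stood above both others, with log2 ratios of -2.23 (-2.45 to -2.02) and -3.09 (-3.38 to -2.82). *Mettl7b*, which overlaps it, had 11, 13 and 4 counts. Of the 8 luminal epithelial markers, which summed to 6683, 6983 and 6689 CPM in blastocysts, *Krt19* (1401, 241 and 108 counts) was beyond 2-fold lower in the same 2 comparisons and *Cldn3* (3144, 2756 and 1499) for rLif against control, and *Wnt7a* was at 0. Their part in the *Itga7* ratios was not tested. *Itga4* had 29, 3 and 3 counts and log2 ratios of -3.31 (-5.67 to -1.62) and -3.30 (-5.66 to -1.61). It overlaps *Cerkl* (5, 3 and 0 counts), so its reads are uncertain too. The share of *Itga7* in the RPKM of the α genes was 14.2%, 3.10% and 1.97%, while *Itga5* held 34.3%, 42.2% and 33.3%.

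Further α chains were low in the blastocysts of rLif-treated females. *Itga9* had 10, 35 and 0 counts, at least 3.40-fold lower than control and at least 11.6-fold lower than eKO against the floor of 3 counts, with interval bounds at log2 ratios of -1.19 and -3.16. *Itga10* had 18, 16 and 1 counts, with log2 ratios of -4.20 (-9.58 to -1.53) to control and -3.99 (-9.38 to -1.31) to eKO. Both were near or at 0 only in the rLif library among the 3. The leukocyte chains *Itgal* (42, 53 and 12 counts) and *Itgam* (48, 101 and 33 counts) were beyond 2-fold for rLif against eKO, at -2.13 (-3.17 to -1.21) and -1.61 (-2.22 to -1.03). The 7 immune markers counted summed to 59.95, 128 and 26.0 CPM in these libraries, a sum led by *Lyz2* (976, 2128 and 289 counts). *Csf1r* and *Lyz2* were beyond 2-fold lower for rLif against eKO. Among the others, *Cd14* (30, 196 and 111 counts) was beyond 2-fold higher in both comparisons to control. *Cd3e* (26, 4 and 14 counts) was beyond 2-fold lower for eKO against control. The part of these markers in the integrin ratios was not tested.

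The 3 chains of the laminin of the early embryo were among the abundant members of blastocysts. *Lama1* had 3274, 4250 and 1658 counts, with a log2 ratio of -1.35 (-1.43 to -1.27) for rLif against eKO, beyond 2-fold, and of -1.01 (-1.10 to -0.92) against control, not beyond it. Its partners in the trimer, *Lamb1* with 5017, 5519 and 3290 counts and *Lamc1* with 7516, 9509 and 5606, had ratios of -0.74 (-0.80 to -0.68) and -0.75 (-0.80 to -0.71) for rLif against eKO. They were each lowest after rLif, and *Lama1* alone of them was beyond 2-fold.

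The nidogens, *Hspg2* and the *Col4a1* and *Col4a2* pair also had their lowest counts in the rLif library. *Nid1* had 14520, 15651 and 8997 counts, with -0.72 (-0.76 to -0.68) against control and -0.79 (-0.83 to -0.75) against eKO. *Nid2* had 1666, 1878 and 1471 counts, with -0.21 and -0.34. *Hspg2* had 455, 477 and 230 counts, with -1.01 (-1.25 to -0.78) and -1.04 (-1.28 to -0.81), close to 2-fold without clearing it. *Col4a1* had 3878, 3015 and 2036 counts and *Col4a2* had 2131, 1771 and 1084, with ratios to control of -0.96 (-1.04 to -0.88) and -1.003 (-1.11 to -0.90). Both collagen counts were lowest after rLif, and neither gene was beyond 2-fold in any blastocyst comparison. *Col4a1* kept 63.8%, 62.01% and 64.4% of the RPKM of the collagen genes.

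Not every basement membrane gene had that order. *Lama5*, the α chain of later epithelia, had 1821, 2212 and 2360 counts and was lowest in the control, with a log2 ratio of 0.35 (0.26 to 0.43) for rLif. Of laminin α RPKM, *Lama1* was 63.1%, 65.3% and 39.3% and *Lama5* was 29.3%, 28.4% and 46.8%. *Lama5* thus had the larger share in the rLif library and *Lama1* in the other two. *Lama3* was also highest there, at 262, 221 and 399 counts. *Agrn* (831, 766 and 771 counts) was within 2-fold throughout.

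*Spp1* and *Itgb1* were level across the blastocyst libraries. *Spp1* had 20635, 22105 and 21863 counts, with log2 ratios of 0.06, 0.06 and -0.01, unlike its luminal values. *Itgb1* had 4487, 4625 and 4436 counts. *Itgb5* had 1594, 1726 and 2178, highest after rLif at 0.42 (0.33 to 0.52) against control. *Dag1* had 23646, 21996 and 17605 counts, *Itga5* had 2591, 3176 and 2167, *Itga6* had 1950, 2167 and 2211, and *Fn1* had 2689, 4159 and 3055. The last 5 had log2 ratios of up to 0.59 in size, and none was beyond 2-fold.

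Collagen genes of the other pairs were almost silent in blastocysts. *Col4a3* had 0, 12 and 6 counts, so that eKO was at least 3.90-fold higher than the control against the floor of 3 counts. *Col4a5* had 5, 11 and 0, at least 3.65-fold lower after rLif than in eKO against the same floor. Their interval bounds were log2 ratios of 1.44 and -1.32, and both stand on 12 counts or fewer per library. *Col4a6* had 0, 4 and 1 counts and *Col4a4* had 5, 0 and 2, below the minimum for analysis.

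**Figure D3:**
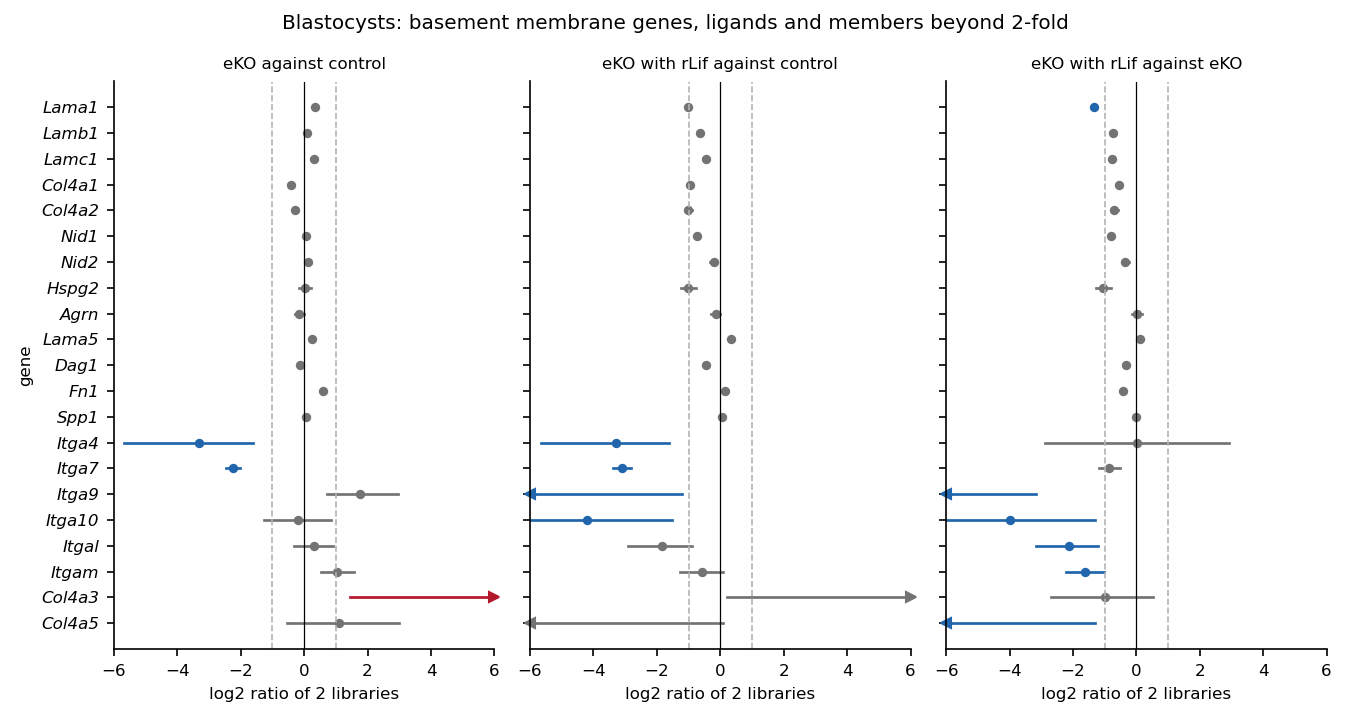
Log2 ratio (x axis) of 13 basement membrane genes and ligands and of the members beyond 2-fold (rows) in the 3 blastocyst comparisons (panels), with points, lines, arrowheads and colours as in the luminal plot. *Lamb1*, *Lamc1*, *Nid1*, *Col4a1* and *Col4a2* lie left of 0 in both panels with rLif, and *Spp1* lies at 0 in all.

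Primitive endoderm is the blastocyst lineage best known for laminin α1 and type IV collagen. Its 6 markers summed to 542, 576 and 631 CPM. Of them *Sox7* (434, 323 and 113 counts) and *Foxa2* (103, 61 and 26) were beyond 2-fold lower for rLif against control, and *Sox7* also against eKO. *Gata4* had 1904, 2258 and 1484 counts, with a log2 ratio of -0.60 to eKO, and *Gata6* had 3454, 3547 and 5388, with 0.61. The lineage list therefore did not have a single order. Trophectoderm markers summed to 7483, 7947 and 7605 CPM and inner cell mass markers to 587, 610 and 814 CPM. The 10 stromal markers summed to 160, 160 and 152 CPM, and the 9 of them on no other marker list, without *Pdgfra*, summed to 36.2, 14.9 and 12.04 CPM. Of the 10, 9 were analysed, with 3 lower for eKO against control and 5 for rLif against control. The part of these lists in the basement membrane ratios was not tested.

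**Figure D4:**
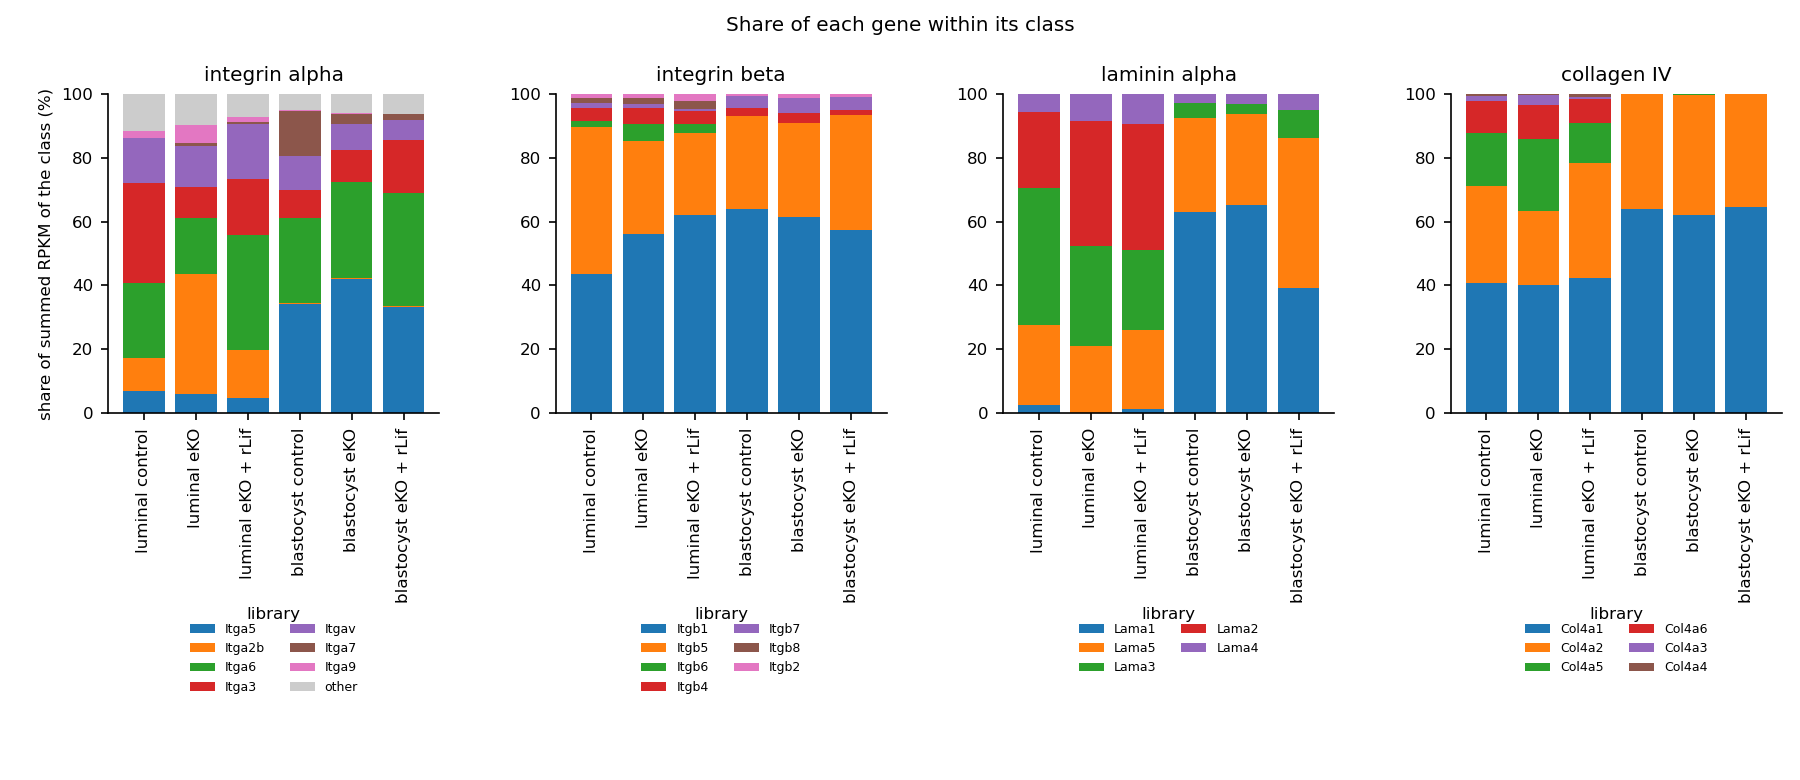
Share of each gene in the summed RPKM of its class (y axis, percent) in the 6 libraries (bars), for 4 classes. Among luminal integrin α chains *Itga2b* takes 37.4% in the library labelled eKO, and among blastocyst laminin α chains *Lama5* takes 46.8% after rLif.

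Levels were also set side by side between the tissues. A gene was counted as apart when the lowest of its 3 RPKM values in a tissue was above 2 times the highest in the other. By this count 26 of 49 members (53.1%) were apart, against 46.9% of 16911 genes, a share near the background. Of these, 15 were higher in the luminal layer (background 23%) and 11 in blastocysts (23.9%). A gene entered this count with at least 10 counts summed in either tissue. *Lama2*, *Lamb3*, *Lamc3*, *Col4a4*, *Col4a6*, *Itga2*, *Itga8*, *Itgad*, *Itgb6* and *Itgb8* entered through their luminal counts alone. Their place on the luminal side thus rests partly on the filter, while the 11 on the blastocyst side passed in both tissues. The libraries of a tissue are of different groups, and the tissues were also collected in different ways, so this is a description with no test.

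Blastocysts had more of *Lama1*, *Lama5*, *Lamb1*, *Lamc1*, *Nid1*, *Nid2*, *Itga5*, *Itga7*, *Itgae*, *Dag1* and *Spp1*. *Lama1* was at 8.97 to 22.7 RPKM in blastocysts and at most 0.322 in the luminal layer, and *Nid2* was at 15.5 to 19.6 against at most 0.914. *Itga7* was at 1.51 to 12.9 RPKM against at most 0.358. Both abundant laminin α chains of blastocysts and both nidogens were thus on this side.

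The luminal layer had more of *Lama2*, *Lamb3*, *Lamc3*, *Col4a3*, *Col4a4*, *Col4a5*, *Col4a6*, *Itga2*, *Itga2b*, *Itga8*, *Itga9*, *Itgad*, *Itgax*, *Itgb6* and *Itgb8*. *Itgb6*, a partner of αv in epithelia, was at 2.16 to 4.29 RPKM against at most 0.0618 in blastocysts. *Lama2*, the laminin α chain of muscle and mesenchyme, was at 0 counts in the 3 blastocyst libraries, and its lowest luminal library was at least 174-fold higher against a floor of 3 counts. *Itga8* and *Itgad* were also at 0 in blastocysts, but their lowest luminal libraries had 7 and 3 counts, so no such fold is given. *Itgad* shares exons with *4931431B13Rik* and *Cox6a2*. All 4 collagen genes outside the *Col4a1* and *Col4a2* pair were on the luminal side, *Col4a4* and *Col4a6* having passed the count minimum there alone. *Itgb1*, at 44.9 to 49.9 RPKM in the luminal layer and 54.5 to 56.3 in blastocysts, was among the 23 that were not apart.

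**Figure D5:**
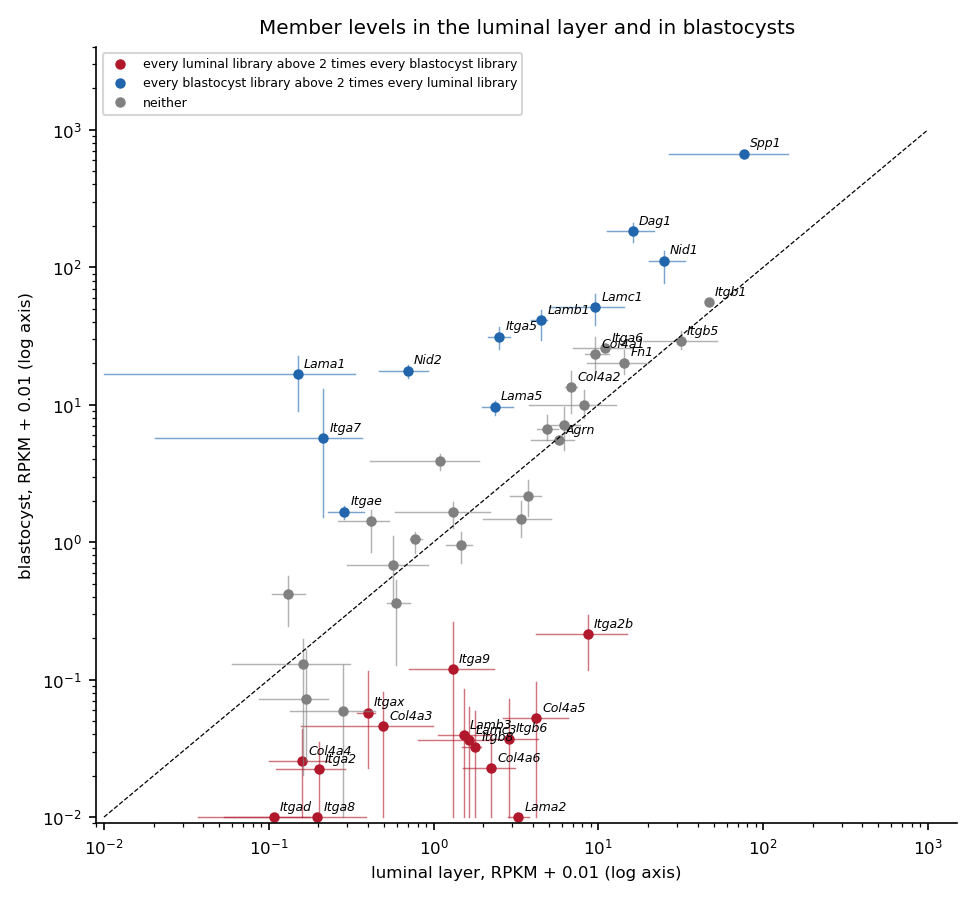
Mean RPKM plus 0.01 of each member in the luminal layer (x axis, log) and in blastocysts (y axis, log), with lines from the lowest to the highest of 3 libraries. Red members (15) were apart on the luminal side, blue members (11) on the blastocyst side, and *Itgb1* lies near the diagonal.

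The remaining 23 members were neither beyond 2-fold in any comparison nor among the 8 most abundant of a tissue. Their mean levels ran from 0.0969 to 9.56 RPKM in the luminal layer and from 0 to 23.3 in blastocysts. They included the integrin chains *Itgav* (974, 1028 and 1509 luminal counts and 1282, 997 and 637 in blastocysts) and *Itgb4* (655, 678 and 498, and 246, 344 and 184), whose exons overlap *Galk1*. *Nid2* overlaps *2700060E02Rik*, which had 1607 to 3253 counts, so its counts are uncertain as well. Luminal *Hspg2*, at 85, 213 and 176 counts, had 1.14 (0.77 to 1.52) against control, and luminal *Itgb6*, at 263, 624 and 311 counts, had 1.06 (0.85 to 1.27), both short of the rule.

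Genes that work with integrins and the basement membrane were counted from 4 lists, 58 genes in all. In the luminal layer 57 were analysed. For eKO against control 4 were higher and 4 lower (14.0%, against 17.2% of all genes), for rLif against control 1 and 4 (8.77%, against 9.16%), and for rLif against eKO 7 and 8 (26.3%, against 15.6%). In blastocysts 52 were analysed, with 0 higher and 3 lower for eKO against control (5.77%, against 3.15%), 1 and 6 for rLif against control (13.5%, against 4.94%), and 0 and 2 for rLif against eKO (3.85%, against 3.75%).

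Among the 17 other ligands and matrix proteins of the basement membrane, *Npnt*, which encodes the integrin α8 ligand nephronectin, had 970, 17 and 84 luminal counts. It was by far lowest in the library labelled eKO, with a log2 ratio of -6.02 to control and of 2.45 for rLif against eKO. *Ntn4*, a netrin that binds laminin γ chains, had 348, 32 and 79 counts, with -3.63 for eKO against control. *Thbs1* (thrombospondin) had 365, 2913 and 957 counts, with 2.81 for eKO and 1.35 for rLif against control. *Frem1*, a protein of epithelial basement membranes, had 276, 56 and 210 counts, and *Icam1*, a ligand of leukocyte integrins, had 214, 88 and 227. Both were lowest in the library labelled eKO, while *Smoc1*, at 158, 672 and 148 counts, was highest there.

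Of the 20 adhesion linkers and kinases, *Fermt1*, the epithelial kindlin that activates integrins, had 3808, 12522 and 4550 luminal counts. It was highest in the library labelled eKO, at 1.53 against control and with a log2 ratio of -1.32 for rLif against eKO. *Tns3*, a tensin, had 519, 1367 and 664 counts and was higher in the same library. The kinase scaffold *Ilk* (2144, 1953 and 2260 counts) and *Tln1*, the talin that links integrins to actin (801, 804 and 887), were within 2-fold. In blastocysts *Lims2* had 64, 140 and 7 counts and *Fermt1* had 35, 73 and 111, the only linkers beyond 2-fold there.

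Of the 12 matrix assembly enzymes and chaperones counted, *P4ha1*, *Loxl1* and *Loxl2* were lower and *Plod3* higher for rLif against eKO in the luminal layer. In blastocysts *Serpinh1*, the collagen chaperone, had 11452, 10404 and 5530 counts and *Pxdn*, which crosslinks type IV collagen, had 118, 37 and 19. Both were beyond 2-fold lower for rLif against control, at -1.08 and -2.66. *Sparc*, a collagen-binding protein, had 5027, 5257 and 3278 counts, with -0.64 and not beyond 2-fold. These 3 were lowest in the rLif library, as were *Col4a1* and *Col4a2*. Of the 9 hemidesmosome and dystroglycan partners, *Lgals3* in blastocysts (2589, 2017 and 1066 counts), at -1.31 for rLif against control, was the sole call in either tissue.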

How the data were processed

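RNA from microdissected luminal layer and from flushed blastocysts was pooled into 1 library per group, and SMART-seq v4 libraries were sequenced with paired-end reads. The authors aligned reads to GRCm38/mm10 with HISAT2 and deposited whole-number counts per gene (featureCounts, Subread 2.0.0), not normalized. The methods speak of RPKM, but the values were counts. Strand and multimapping settings were not given in the sources used here, so counts of overlapping genes are uncertain.

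Genes with at least 10 counts summed over 3 libraries of a tissue were analysed. For levels set side by side between tissues, passing this minimum in either tissue was enough. Sizes were scaled by TMM within a tissue (edgeR 4.0.16, R 4.3.3). The ratio of counts in 2 libraries was given its exact 95% interval (Clopper-Pearson, SciPy 1.17.1), and a log2 limit of 1 was applied. The interval covers counting error only and takes each read as an independent count. Reads carried no molecular identifiers, so reads copied from the same molecule could not be told apart, and the intervals may be too narrow. Medians used CPM plus 2. RPKM was computed from the deposited exon lengths and total counts. Fold bounds used a floor of 3 counts. With 1 library per group no test between replicates was possible. Values are given for members beyond 2-fold in any comparison and for the 8 with the highest mean RPKM in each tissue, and others named were chosen after their values were seen. Alternatives were other scalings, filters, limits and an edgeR exact test with an assumed dispersion of 0.1. Members and lists were chosen with earlier results of these data known. A further member of these gene families and an epithelial marker are not reported here.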

Additional observations from a re-analysis of the deposited data

Results flagged for a closer look

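*Itga7* and *Lama1* were beyond 2-fold in opposite directions in the 2 tissues. For eKO against control, the log2 ratio of *Itga7* was 5.17 in the luminal layer, on 1 control count, and -2.23 in blastocysts. With rLif, the ratio to control was 4.71 for the luminal layer and -3.09 for blastocysts. For rLif-treated against untreated eKO, *Lama1* was at least 9.56-fold higher in the luminal layer when the 0 counts in eKO were set to a floor of 3. The exact interval of *Lama1* there began at a log2 ratio of 2.86, and its log2 ratio in blastocysts was -1.35. *Col4a3* for eKO against control, and *Col4a5* and *Itga9* for rLif against eKO, were beyond 2-fold in the same direction in both tissues. Their blastocyst counts were few, at 12 against 0, 0 against 11 and 0 against 35 in that order. The share of all genes beyond 2-fold in both tissues is not given, so this is not read as agreement between tissues. With 1 library per group, the difference between tissues was not tested for any of these genes.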

How the results depend on the processing

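The number of members beyond 2-fold depended on the limit. In the luminal layer, the 13, 6 and 8 members (eKO against control, rLif against control, rLif against eKO) became 35, 34 and 37 with intervals beyond a log2 ratio of 0, and 3, 1 and 2 beyond 2. An edgeR exact test with an assumed dispersion of 0.1 gave 3, 2 and 2. In blastocysts, the 3, 4 and 6 members became 29, 29 and 25 at 0, and 1, 1 and 1 at 2, while the edgeR exact test gave 0, 1 and 1. With a minimum of 50 counts the blastocyst numbers were 1, 1 and 3. Scaling by RLE or by total counts and no filter kept each count within 1.5 times, and the tissue count stayed at 26 with TMM over all 6 libraries and was 36 with no fold. The share over all genes is not given for any of these alternatives, so the counts are not read as results about the members. Scaling by total counts shifted the median of all genes by -0.11 for luminal rLif against control. Of 284 log2 ratios of named members under other scalings, 264 stayed within their counting interval and 20 left it, with changes of at most 0.18. Scaling by total counts turned the sign of 4 of them, *Itgal* and *Itgb1* for luminal rLif against control, *Itgb1* for blastocyst eKO against control and *Spp1* for blastocyst rLif against eKO, each of size 0.14 or less and none beyond 2-fold. No paired analysis was possible because each group was 1 library with no replicate number. Most blastocyst calls rest on few counts, and the spread between animals limits every ratio.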
